A study of Phyllostachys edulis with 2 samples.

Results

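The nuclear transcription factor Y (NF-Y) transcripts of Moso bamboo lateral buds were chosen by the wording of their best protein match. The rule used no read counts, but it was set with earlier results of these data known. From the same libraries, the study had listed the family of NF-Y subunit A (NF-YA) among those highly expressed in early shoot. The values below are therefore not independent of that report. A transcript was taken when the description of the match named nuclear transcription factor Y, NF-Y, a CCAAT-binding or CCAAT-box factor, or one of the HAP names of the subunits. The rule gave 18 transcripts of 5 loci, out of 148492 transcripts of 85391 loci listed in both tables. The buds came from rhizomes of wild type Phyllostachys edulis and were dug out either in germination stage or in early shoot stage. RNA of several buds was pooled, and each stage is represented by 1 library. The stages were therefore compared without replicates, and no p-values are given. In germination 4481221 reads were counted and in early shoot 7878826.

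NF-Y is a complex of an A, a B and a C subunit that binds the CCAAT box of promoters. The B and C subunits pair through a histone fold, like that of histones H2B and H2A, and the A subunit joins this pair and contacts the CCAAT bases. In the older HAP names, which come from yeast, HAP2, HAP3 and HAP5 stand for the A, B and C subunits, respectively. Plants have many genes for each subunit. Members of the family are known from Arabidopsis and rice for roles in embryo development, in flowering together with CONSTANS proteins, and in responses to abscisic acid and gibberellin.

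Reads on the NF-Y transcripts were more frequent in early shoot. Together they held 902 reads at germination and 4483 at early shoot stage. The libraries were scaled by 1.8, the median of the ratios of single transcripts. Early shoot was then compared with germination, and the summed reads had a log2 ratio of 1.47 (95% CI 1.36 to 1.57), a fold of 2.76. The CIs are exact (Clopper-Pearson) for the counts and describe counting error alone, since each stage has 1 library. Amplified reads are not separate molecules, and a read may have been counted on more than 1 transcript. The CIs may therefore be too narrow even for counting error. Of the members, 16 belonged to 3 loci with several transcripts each, Locus_351, Locus_6742 and Locus_7216. The other 2 loci, Locus_45517 and Locus_73114, had 1 transcript each with at most 14 reads in a library. In RNA of whole buds, a larger share of cells that express a gene and more of its RNA per cell cannot be told apart.

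**Figure D1:**
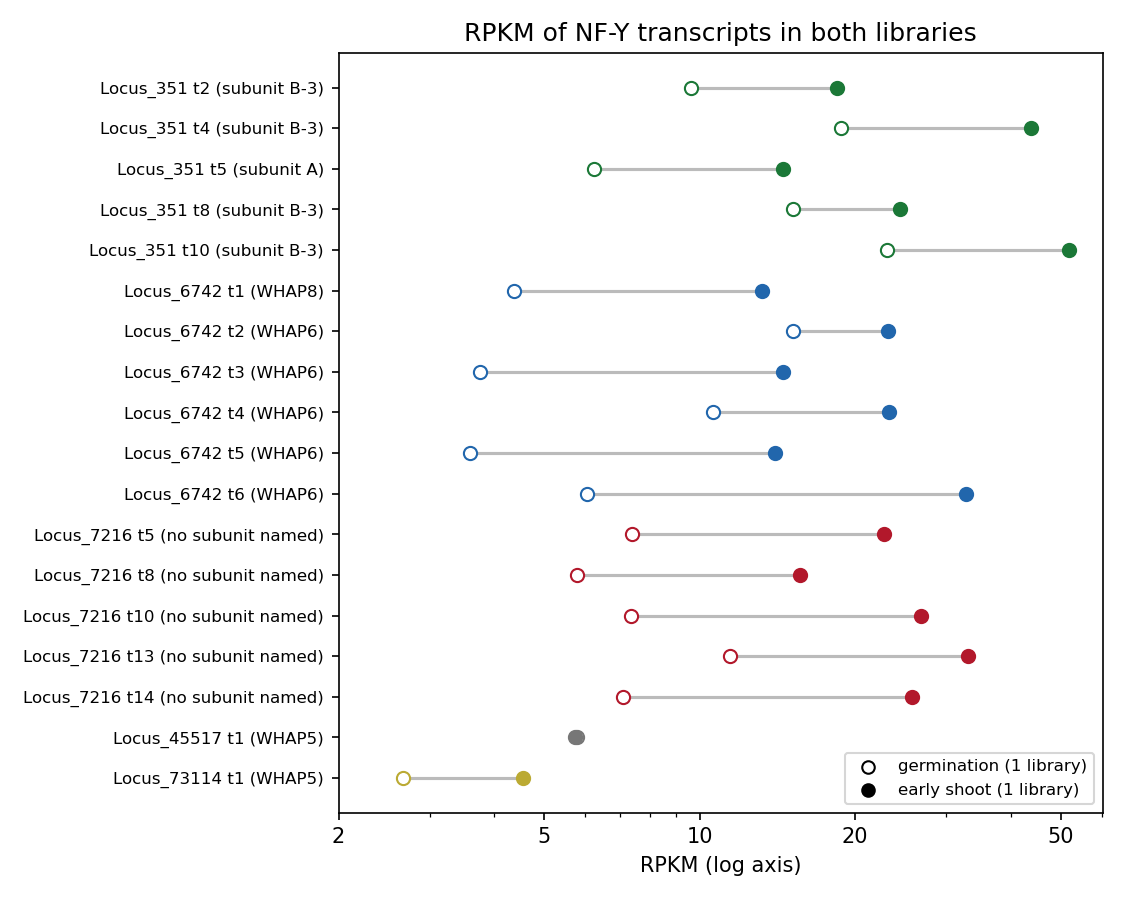
RPKM (reads relative to transcript length and library total, log axis) of the 18 NF-Y transcripts, 1 line per transcript (t, transcript number), with open points for the germination library and filled points for the early shoot library. RPKM was between 2.67 and 23.03 in germination and between 4.56 and 51.94 in early shoot, and only the transcript of Locus_45517, with 5.78 and 5.75, did not lie higher in early shoot.

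The descriptions name the subunit for 1 locus only. For 4 transcripts of Locus_351 the best match is subunit B-3 of rice, OsNF-YB-3, also called HAP3B. The fifth member of that locus is matched to a rice CCAAT-binding factor described as subunit A. In the older CBF names of mammals the A subunit is the one now called NF-YB, so the letter does not by itself place this match with NF-YA. The 6 transcripts of Locus_6742 are matched to the CCAAT-box complex proteins WHAP6 and WHAP8 of wheat, and Locus_45517 and Locus_73114 to a rice protein described as WHAP5. These descriptions do not give the subunit. The 5 members of Locus_7216 are matched to a rice protein described as a putative CCAAT-binding transcription factor, with no subunit and without the name NF-Y. The words CCAAT-binding have also been given to proteins outside the NF-Y complex, and the description does not tell which is meant. The results are therefore also given without this locus.

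All 18 members had RPKM above 1.0 in both libraries. To call a difference, a G-fold value was used, the 0.01 quantile nearest 0 of the posterior log2 ratio, set to 0 where the lower and the upper quantile differ in sign. A transcript was called when this value was beyond 1.0 in either direction and RPKM was above 1.0 in both libraries. Of the 18 members, 7 were called higher in early shoot, against 1.40% of all 120465 transcripts above the RPKM cutoff. In germination stage 0 members were called, against 3.77% of all transcripts. With the plain log2 ratio in place of the G-fold value, 13 members lay beyond 1 toward early shoot and 0 toward germination. The G-fold value was above 0 in 16 members and below 0 in none, against 12.0% above 0 over all transcripts. A call needs reads, so the shares were also taken over the 32110 transcripts with at least 100 reads over both libraries, a minimum chosen after the data were seen. Of these, 4.29% were called higher in early shoot and 29.6% had a value above 0. Of the members, 16 reached this minimum, of which 7 were called and 16 had a value above 0. Some reached it mainly through their early shoot reads, such as transcript 1 of Locus_6742 with 16 and 85 reads. The shares at this minimum are therefore no separate support. Transcripts of 1 locus share sequence and reads and are not independent. Without Locus_7216, 3 of 13 members were called, and their summed log2 ratio was 1.32 (95% CI 1.18 to 1.46). Without Locus_6742, 4 of 12 were called.

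**Figure D2:**
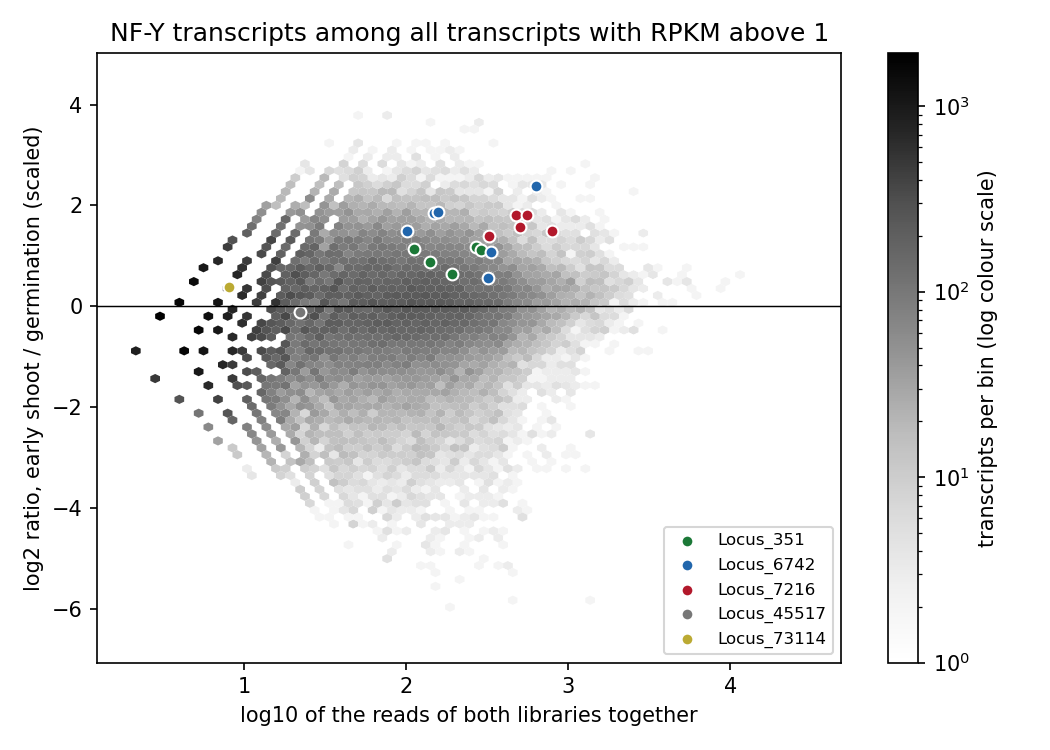
Log2 ratio of early shoot to germination (scaled, 1 read added to each count) against the log10 of the reads of both libraries together, for all 120465 transcripts with RPKM above 1.0 in both libraries (grey, darker bins hold more transcripts) and the 18 NF-Y transcripts (coloured by locus). The members of the 3 larger loci lie above 0, from 0.57 to 2.38, and both single transcripts lie near 0 among transcripts with few reads.

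Locus_351, the NF-YB locus, held the transcript with the highest RPKM of the family and had the smallest shift of the 3 larger loci. Its 5 members are 562 to 786 bp long and held 215 reads at germination and 787 at early shoot stage. The log2 ratio of these sums was 1.02 (95% CI 0.80 to 1.25), a fold of 2.03. Transcript 10 (562 bp) had the most reads, 58 and 230, with RPKM of 23.03 and 51.94. In early shoot, 98.8% of all transcripts had a lower RPKM than this one. Transcript 4 had the highest log2 ratio of the members of the locus, 1.17 (95% CI 0.75 to 1.65), from 53 and 217 reads. Transcript 8 had the lowest, 0.64 (95% CI 0.18 to 1.15), from 50 and 142 reads. Transcript 2 had 32 and 108 reads, and transcript 5, the one described as subunit A, 22 and 90. The members of the locus thus lay within 0.53 of each other on the log2 scale, and each interval overlapped those of the others. All 5 G-fold values were above 0, from 0.11 to 0.68, and none was called.

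The other 5 transcripts of Locus_351 did not all move with the members. Its transcripts 1, 3 and 9 are matched to a predicted protein of barley that the description does not name. They had 22, 58 and 47 reads in germination and 49, 92 and 80 in early shoot. Their summed log2 ratio was -0.05 (95% CI -0.37 to 0.28), an interval that lies below that of the members. The pattern did not follow length. Of the 3 transcripts of 737 bp, the member transcript 8 had a log2 ratio of 0.64, and transcripts 3 and 9 had -0.19 and -0.09. Of the 2 transcripts of 562 bp, the member transcript 10 had 1.12 and transcript 1 had 0.27. The 3 transcripts with the barley match held 32.8% of the reads of the locus in germination (95% CI 28.2 to 37.7%) and 17.9% in early shoot (95% CI 15.8 to 20.2%), while the 5 members held 55.6% (95% CI 50.4 to 60.6%) and 63.8% (95% CI 61.0 to 66.5%). The remaining transcripts, 6 and 7, have no protein match and were higher in early shoot, with 45 and 226 reads together. Over all 10 transcripts the locus had 387 and 1234 reads and a log2 ratio of 0.82 (95% CI 0.66 to 0.99). How the reads of 1 locus were divided among its transcripts is not given in the sources used here, so the split within a locus is less certain than its sum. If a read was counted on more than 1 transcript, the sum holds it more than once.

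**Figure D3:**
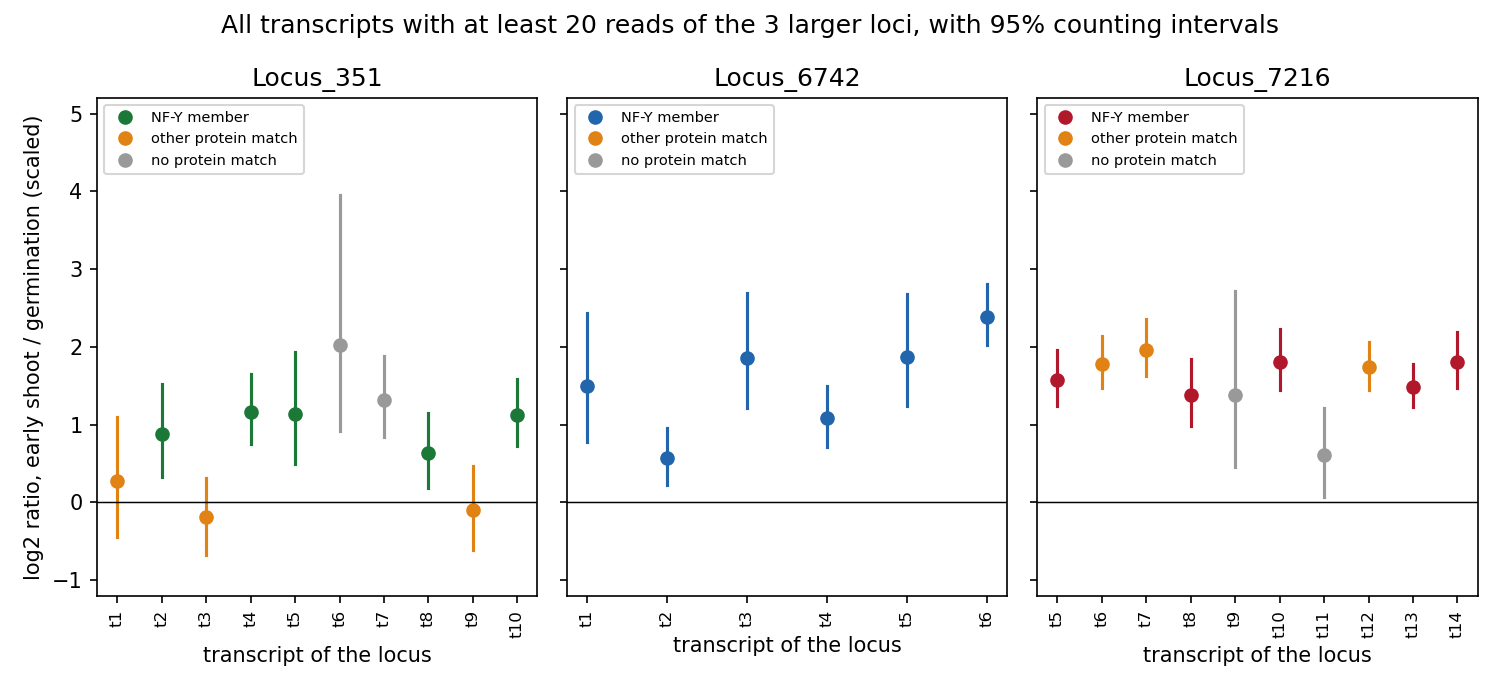
Log2 ratio of early shoot to germination (scaled, 1 read added) with 95% counting intervals for every transcript with at least 20 reads of Locus_351, Locus_6742 and Locus_7216, by transcript number. The intervals were taken without the added read. The members are in the colour of the locus, transcripts matched to other proteins in orange and transcripts without a match in grey. In Locus_351 the orange transcripts lie between -0.19 and 0.27 and the members between 0.64 and 1.17, whereas in Locus_7216 orange transcripts and members lie side by side above 1.

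Locus_6742, the locus matched to WHAP6 and WHAP8, had the widest spread among its members, 1.81 on the log2 scale. All of its 6 transcripts are members, and they held 271 reads at germination and 1423 at early shoot stage, a log2 ratio of 1.54 (95% CI 1.36 to 1.74) and a fold of 2.92. Its longest transcript, transcript 6 with 2212 bp, counted 60 reads at germination and 572 at early shoot stage, and its RPKM was 6.05 and 32.82. This is the largest difference of any member, with a log2 ratio of 2.38 (95% CI 2.02 to 2.81) and a G-fold value of 1.96. Of the 120465 transcripts above the RPKM cutoff, 145 had a higher G-fold value. Transcripts 3 and 5 followed, with 19 and 20 reads in germination and 129 and 137 in early shoot, and G-fold values of 1.11 and 1.14. Transcript 2 had the most reads of the locus in germination and moved least. It went from 87 to 234 reads, a log2 ratio of 0.57 (95% CI 0.22 to 0.95), an interval that does not reach that of transcript 6. Transcript 4, with 69 and 266 reads, had a log2 ratio of 1.08, and the WHAP8 transcript, with 16 and 85 reads, 1.49. Transcripts 3, 5 and 6 were called and transcripts 1, 2 and 4 were not.
The make-up of Locus_6742 therefore differed between the libraries. Transcript 6 held 22.1% of the reads of the locus in germination (95% CI 17.3 to 27.6%) and 40.2% in early shoot (95% CI 37.6 to 42.8%). Transcript 2 held 32.1% (95% CI 26.6 to 38.0%) and 16.4% (95% CI 14.6 to 18.5%). The most abundant transcript was transcript 2 in germination and transcript 6 in early shoot. When only transcript 6 was taken to stand for the locus, its log2 ratio (no read added, as for sums) was 2.40 in place of 1.54.

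Locus_7216, described as CCAAT-binding without a subunit, held the most reads, and its members had the narrowest spread of the 3 larger loci. Its 5 members, 1934 to 2549 bp long, had 406 reads at germination and 2253 at early shoot stage, which is 45.0% and 50.3% of the reads of all 18 members. The log2 ratio of the sums was 1.62 (95% CI 1.47 to 1.78), a fold of 3.08. Transcript 13 had the most reads, 131 in germination and 665 in early shoot, with RPKM of 11.47 and 33.11. The highest log2 ratio was that of transcript 10, 1.81, from 64 and 409 reads, and the lowest that of transcript 8, 1.39, from 56 and 267 reads. Transcripts 5 and 14 have the same length, 2384 bp, and had 79 and 76 reads in germination and 428 and 484 in early shoot. The members of the locus spanned 0.42 on the log2 scale, less than the width of the interval of each. The G-fold values were above 1.0 in 4 members, from 1.18 to 1.41, and transcript 8 lay just below the threshold with 0.92.
The locus has 9 further transcripts that the rule did not take. Transcripts 6, 7 and 12 are matched to unnamed proteins of rice and barley and had log2 ratios of 1.78, 1.96 and 1.74, all of them called higher in early shoot. The 6 transcripts without a match held 48 and 164 reads, a log2 ratio of 0.92 (95% CI 0.45 to 1.42), an interval that lies below that of the members. Transcript 11 had the most of these reads, 37 and 103, with a log2 ratio of 0.60 (95% CI 0.07 to 1.21). Over its 14 transcripts, Locus_7216 had 719 and 4117 reads and a log2 ratio of 1.67 (95% CI 1.55 to 1.79).

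The WHAP5 transcripts had few reads and wide intervals. Locus_45517 (309 bp) had 8 and 14 reads, and its log2 ratio was -0.11 (95% CI -1.39 to 1.42). Locus_73114 (167 bp) had 2 and 6 reads, and its log2 ratio was 0.37 (95% CI -1.75 to 4.08). The intervals were taken without the added read, and without it the log2 ratios were -0.04 for Locus_45517 and 0.74 for Locus_73114. Both intervals hold 0. That of Locus_45517 holds the value of Locus_351 (1.02) but ends below that of all members (1.47), whereas that of Locus_73114 holds both. The reads of both transcripts together, 10 and 20, had a log2 ratio of 0.15 (95% CI -1.01 to 1.41). The G-fold value of both is 0.

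**Figure D4:**
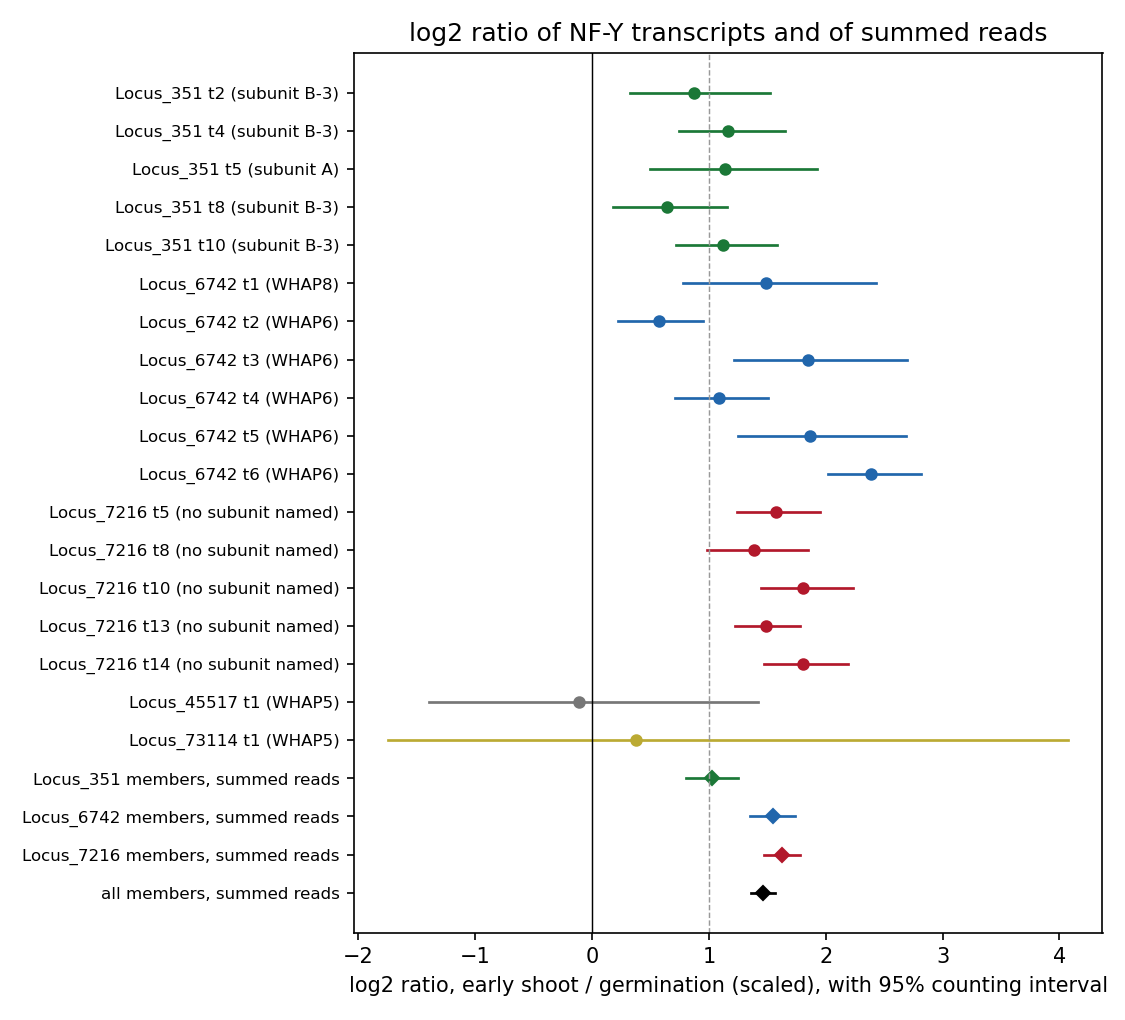
Log2 ratio of early shoot to germination with 95% counting intervals for each of the 18 NF-Y transcripts (circles, 1 read added to each count) and for summed reads (diamonds, none added), with a line at 0 and a dashed line at 1. No read was added for the intervals. The summed reads lie at 1.02 for Locus_351, 1.54 for Locus_6742, 1.62 for Locus_7216 and 1.47 for all members. The intervals of both WHAP5 transcripts cross 0.

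With the reads summed per locus, the G-fold values were 0.77 for the members of Locus_351, 1.32 for Locus_6742 and 1.44 for Locus_7216, so that 2 of 5 loci lay beyond 1.0. Over all 68491 loci with a transcript above the RPKM cutoff, 1.37% did so in this direction. For that share all transcripts of a locus were summed. Summed in this way, the G-fold values were 0.63 for Locus_351 and 1.53 for Locus_7216. A call needs reads, and no share was taken over loci with as many reads as these. In the order of their log2 ratios, the intervals of Locus_7216 and Locus_6742 overlapped (from 1.47 to 1.78 and from 1.36 to 1.74), and both lay above that of Locus_351, which ended at 1.25. These intervals cover counting error, and the spread among libraries of the same stage could not be measured.

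The calls among other transcription factors of the buds lay mostly in germination stage. Descriptions with the name of a transcription factor or of a family, outside the NF-Y members, were found for 193 transcripts of 82 loci. Of these, 1 was called higher in early shoot and 23 higher in germination, against 1.40% and 3.77% of all transcripts above the RPKM cutoff. Of the 193, 180 had RPKM above the cutoff in both libraries and could be called. Over all transcripts with at least 100 reads, the shares were 4.29% and 7.74%, and the list was not cut at this minimum. The 23 calls came from 11 loci, and 7 of them from 1 locus. The median log2 ratio of the 193 transcripts was -0.26, compared with 1.28 for the NF-Y members and -0.10 for all transcripts. The 1 call in early shoot was a transcript of Locus_5293 matched to squamosa promoter-binding-like protein 17, with 40 reads at germination and 280 at early shoot stage, named here because it stood alone. Of the 8 transcription factor transcripts called higher in early shoot, 7 were thus NF-Y members, from 2 loci. Without Locus_7216 these were 3 of 4, all from Locus_6742.

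A list of proteins known to bind NF-Y subunits, or of pathways in which NF-Y takes part (flowering and the clock, abscisic acid and gibberellin), was represented by 38 transcripts of 14 loci. By description, these were bZIP proteins (10 transcripts), pseudo-response regulators of the clock (11) and gibberellin receptors of the GID1 type (6). The others were described as interacting with CONSTANS or ABI3 (10) or as CONSTANS-like (1). In early shoot 0 were called and in germination 4, against 1.40% and 3.77% of all transcripts, so that 0 calls in early shoot is near the background for a list of this size. The median log2 ratio was 0.17. Between them 5 had G-fold values above 0 and 9 below 0, against 12.0% and 13.5% of all transcripts above the RPKM cutoff. The locus with the most reads over both libraries, Locus_441, is matched to pseudo-response regulator 1, a clock protein of rice. Its 10 transcripts held 414 and 1084 reads, which gives a log2 ratio of 0.54 (95% CI 0.38 to 0.71), and none was called. The 4 calls in germination were all matched to proteins described as gibberellin receptors of the GID1 type, and were named after their values were seen. Whether they bind gibberellin is not shown by the descriptions. Of these, 3 belonged to Locus_5505, with 654 and 404 reads on its 4 transcripts, and 1 to Locus_12662, with 51 and 13 reads. The single CONSTANS-like transcript had 1 read in germination and 8 in early shoot, too few to detect a difference.

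For the relatives of NF-Y that share the histone fold, and for general transcription factors, 15 transcripts of 4 loci were found. Only Locus_7652 is described as a histone, H2B, and the other loci are matched to transcription initiation factors. None of the 15 was called in either direction, against 1.40% and 3.77% of all transcripts above the RPKM cutoff. For a list of this size, this is near the background. The median log2 ratio was -0.13. The locus with the most reads over both libraries, Locus_2763, has long transcripts, with RPKM of at most 8.31, and is matched to subunit 1 of TFIID, the factor that recognises the core promoter, and its 8 transcripts had 1501 and 2534 reads with a log2 ratio of -0.09 (95% CI -0.19 to 0.00). Histone H2B, the histone whose fold NF-YB resembles, had 122 and 169 reads on 5 transcripts, a log2 ratio of -0.38 (95% CI -0.72 to -0.03) and a summed G-fold value of 0. A transcript of Locus_1230 matched to the gamma subunit of TFIIA, also a general factor, was counted with the other transcription factors above and was called higher in germination, with 30 and 7 reads. It was named after its value was seen.

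The tissue of the labels was compared with marker genes in both libraries. From a list of markers of growing buds and meristems, which took every knotted or KNOX homeobox description, 13 transcripts of 6 loci were found. They had 2043 reads at germination and 4363 at early shoot stage, a log2 ratio of 0.25 (95% CI 0.17 to 0.32). Of these, 6 had G-fold values above 0 and 5 below 0, against 12.0% and 13.5% of all transcripts above the RPKM cutoff. The only call was cyclin-B2-1, higher in early shoot with 18 and 227 reads, against 1.40% of all transcripts called in that direction. Histone H3 (Locus_1207), the locus of this list with the most reads, had 653 and 1964, a log2 ratio of 0.74 (95% CI 0.61 to 0.87). KNOX homeobox transcripts had reads in both libraries, with log2 ratios of 0.89 for OSH1, 0.03 for knotted 1, -0.52 for OSH45 and -1.04 for HOS58. The log2 ratio of the summed marker reads thus mixes loci that moved in opposite directions. All marker transcripts with a G-fold value below 0 belonged to OSH45 and HOS58. Their descriptions do not say whether these genes mark the meristem. Descriptions naming proliferating cell nuclear antigen, histone H4 or ribonucleotide reductase were not found. The log2 ratios of the marker transcripts ranged from -1.16 to 2.74. The markers of green leaf, with 37 transcripts of 14 loci, had 2559 and 4168 reads and a log2 ratio of -0.14 (95% CI -0.22 to -0.07). Most of these reads, 1881 and 2866, came from Locus_18, matched to photosystem I P700 apoprotein A1, with a log2 ratio of -0.24. The summed ratio therefore says little about the other loci. Of the 37 transcripts, 1 had a G-fold value above 0 and 3 below 0, against 12.0% and 13.5% of all. None of the 37 was called, against 1.40% of all transcripts called in early shoot and 3.77% in germination. The part of the cell types of the bud in the NF-Y values was not tested.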

How the data were processed

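The authors deposited raw counts of reads on each assembled transcript, not normalized, beside an RPKM. The deposited RPKM divides the count by the transcript length and the total of its table, and recalculation gave every value to within 0.0483. The submitters' processing notes list TopHat2 2.0.8b and Cufflinks 2.2.1, whereas the transcript names have the form of a de novo assembly. The study's methods describe searches against rice proteins, whereas the matches in the deposited tables also name wheat, barley and other species. How these matches were made, and which programs assembled and counted the transcripts, is not given in the sources used here.

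Quantiles and intervals were calculated in SciPy 1.17.1 (Python 3.11.15, pandas 2.3.3, NumPy 2.4.6) and figures drawn in matplotlib 3.10.9. The G-fold value follows the idea of the program Gfold but was computed without it, from the beta posterior with 1 added to each count, and was tested on simulated data. In log2 ratios 1 read was added to the counts of single transcripts and none to sums. The intervals were taken from the counts without an added read. The median ratio, 1.8, scaled the counts. It was replaced in turn by the ratio of totals (1.76), by TMM in edgeR 4.0.16 with R 4.3.3 (1.76), by the upper quartile (1.70) and by totals lacking the 10 most abundant transcripts (1.76). Further alternatives changed the rule for a call, the cutoff, the depth and the unit of counting. Within each member locus, the transcripts with the most reads and with the highest and lowest ratio were named. Of each other list only the locus with the most reads was named, except single genes chosen after their values were seen (histone H2B, the markers and those stated). The members and lists were chosen with earlier results of these data known.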

Additional observations from a re-analysis of the deposited data

How the results depend on the processing

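No alternative called a member higher in germination, and the log2 ratios of the summed reads of all members, Locus_351, Locus_6742 and Locus_7216 stayed above 0 under every alternative run. The number of members called higher in early shoot, 7, was between 7 and 8 under the other scalings, the quantile of 0.05, the other cutoffs and the thinned library. It was 13 with the plain log2 ratio and with log2 of RPKM plus 1 or plus 0.1, and 0 with a threshold of 2. Summing the reads of each locus left 2, and so did counting only its most abundant member. Leaving out a locus, an alternative for the calls that was added after the data were seen, gave 4 without Locus_6742 and 3 without Locus_7216. The log2 ratio of all summed reads, 1.47, was 1.67 with the most abundant member of each locus, 1.58 without Locus_351 and 1.32 without Locus_7216. For Locus_351, the other transcripts of the locus alone, also added after the data were seen, gave 0.53 in place of 1.02, and for Locus_6742 the most abundant member alone gave 2.40 in place of 1.54. That member, transcript 6, led in early shoot only, whereas transcript 2 led in germination. The values 2.40 and 1.67 depend on this choice and are no separate support. The other scalings raised every log2 ratio by 0.03 to 0.08, which turned the value of Locus_45517 (no read added) from -0.04 to 0.04 with the upper quartile, far within its interval. With 1 library per stage no replicate could be left out. No paired analysis was possible because each stage has 1 library. With 2 to 14 reads per library, the intervals of the WHAP5 loci span more than 2 on the log2 scale.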
